A study of Homo sapiens with 2 samples.

Results

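Platelet-derived growth factor (PDGF) signalling was examined through 7 genes in lung fibroblasts with and without knockdown of periostin: the ligand genes PDGFA, PDGFB, PDGFC and PDGFD, the receptor genes PDGFRA and PDGFRB, and PDGFRL. They were chosen by name, and all 7 were found among the 21743 genes that could be named on the array through RefSeq accessions. The cells were MRC-5, a widely used fibroblast line that was derived from human fetal lung. One culture had received control siRNA and the other periostin siRNA, the latter at 10 nM for 48 h, and the RNA of each was hybridized to 1 single-colour Agilent array. No dose or time is stated for the control siRNA in the series text. Neither condition was repeated, so the conditions could not be tested against each other, and the effect of the siRNA cannot be told apart from a difference between the cultures.

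PDGF is a classical mitogen and attractant of fibroblasts and other mesenchymal cells. The A, B, C and D chains form dimers that bring together a pair of receptor tyrosine kinases, PDGFRα and PDGFRβ. The A and B chains are matured inside the cell by furin-like convertases, whereas the C and D chains are secreted in a latent form and are activated outside it by proteases such as the plasminogen activators. PDGFRα binds the A, B and C chains, PDGFRβ binds mainly the B and D chains, and in the lung the signal between epithelium and PDGFRα-bearing mesenchyme is known for its part in alveolar development and in fibrosis. PDGFRL encodes a protein that resembles the extracellular portion of the receptors and has no kinase domain.

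Signals are background-subtracted spot intensities, scaled here so that 75% of the non-control spots lay below 377 on both arrays. A log2 ratio is that of periostin siRNA over control siRNA. All 7 genes were well above background on both arrays, as flagged by the scanner software, and none of their 17 spots was saturated or carried an outlier flag. PDGFA had a probe printed 10 times and a probe printed once, and the other 6 genes had 1 spot each. For a single spot the error given is the one that the software propagates, which is set mainly by a fixed share of the signal. As a second error, the SD of the log2 ratio between spots was taken over probes printed 10 times with a like signal. Neither covers the difference between cultures. POSTN, the target of the siRNA, had a signal of 2638 in the control siRNA culture and 279.8 after periostin siRNA, which makes its log2 ratio -3.24 ± 0.20 (propagated error). All 9 fibroblast markers were well above background on both arrays, with VIM at 189263 and 174022, and none differed by more than 2-fold. Of 24 markers of other cell types, 16 were well above background on both arrays, while CDH1, KRT5, PECAM1, MYH11, LAPTM5 and PPBP were so on neither. Some of the 16 were bright, such as the endothelial marker TEK, with signals of 5457 and 5175. The leukocyte marker CD68 had 1528 and 2451, so the markers do not all point to fibroblasts alone. The other endothelial and leukocyte markers were far dimmer, such as VWF at 72.1 and 79.8 and PTPRC at 17.6 and 25.1. Whether other cells were present was not tested. Past 3-fold were the epithelial marker EPCAM, with signals of 34.6 and 135.1, and the platelet marker PF4, with 35.8 and 10.6.

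Among the receptors, PDGFRA and PDGFRL had lower signals with periostin siRNA, and PDGFRB did not differ beyond the error of its spot. PDGFRA, the receptor for the A and C chains, had a signal of 17397 with control siRNA and 9320 with periostin siRNA. It was thus 1.87-fold lower in the periostin siRNA culture, with a log2 ratio of -0.90 ± 0.20 (propagated error). The SD among 28 probes of like signal was 0.05, and 7.54% of all genes with a ratio had a lower ratio than PDGFRA. PDGFRB had a signal of 1927 with control siRNA and 1818 with periostin siRNA, so that its spot was nearly as bright in both cultures. Its log2 ratio was -0.08 ± 0.20 (propagated error), with an SD of 0.06 among 89 probes of like signal. The ratio changed sign to 0.02 when the background was modelled by the normexp method. PDGFRL had a signal of 850.9 with control siRNA and 405.6 with periostin siRNA and was the lowest of the 7 genes by its ratio. It was 2.10-fold lower, at a log2 ratio of -1.07 ± 0.20 (propagated error), against an SD of 0.07 among 107 probes of like signal, and the normexp correction brought it to -0.94, short of 2-fold.

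The receptors were compared with each other through the difference of their log2 ratios, a quantity that does not depend on a common scale factor of the arrays. PDGFRA lay below PDGFRB by a difference of -0.82 with a combined propagated error of 0.29, and PDGFRL lay below PDGFRB by -0.99 with the same error. The difference of PDGFRL from PDGFRA was -0.17, smaller than its error of 0.29, so these receptors cannot be ranked by the propagated error. The unequal ratios of PDGFRA and PDGFRB show that the pair did not shift together on these arrays. Smooth muscle cells and pericytes also bear PDGFRβ, so 7 genes used as their markers were read as well. Both cultures were of a fibroblast line, and the labels name no other cell type. Of these markers, 6 were well above background on both arrays. Their log2 ratios were 1.08 for ACTA2, 1.50 for CNN1, 0.98 for RGS5, 0.19 for DES, -0.05 for CSPG4 and -0.18 for MCAM, and MYH11 was not well above background. These values do not show that a second cell type was present, and a relation of these genes to the receptor values was not tested.

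**Figure D1:**
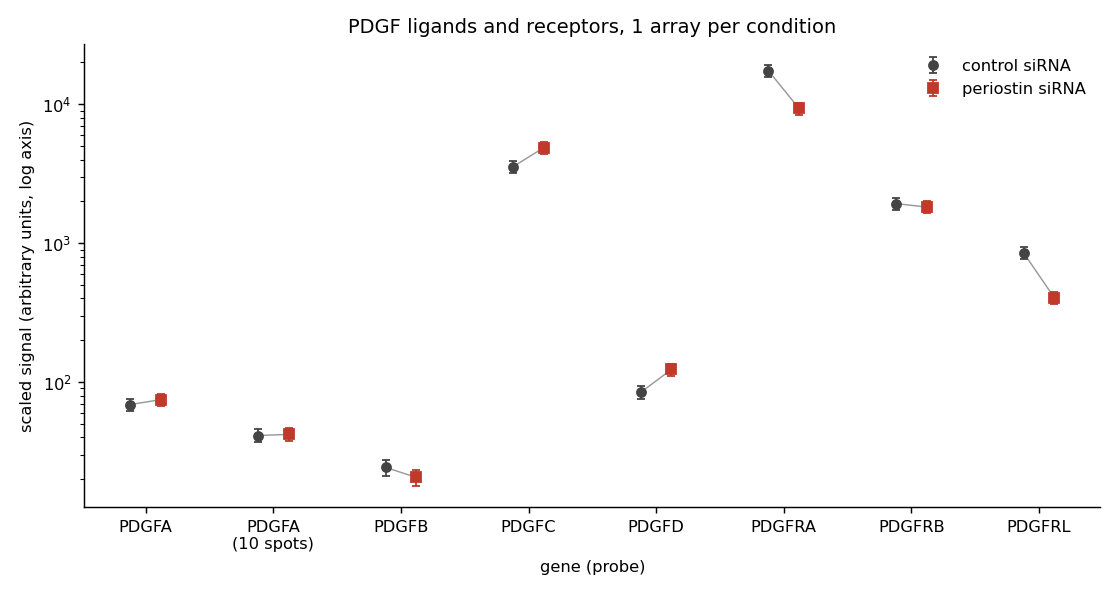
Scaled signal of each PDGF probe (vertical log axis, arbitrary units) on the control siRNA array (circles) and the periostin siRNA array (squares). Error bars are the error that the scanner software propagates for a spot (for the 10-spot probe of PDGFA, its mean over the spots), the signals of PDGFRA and PDGFRL are 1.87-fold and 2.10-fold lower with periostin siRNA, and levels of different probes are not comparable with each other.

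The sequences upstream of PDGFRA and PDGFRB are printed because these receptors pair with each other while their ratios differed. They are from RefSeq on GRCh38.p14, which held a promoter for 4 of the 7 genes, and each run covers the 250 bases before a transcription start, written along the gene from 5′ to 3′. Capitals mark the letters CCAAT (the CCAAT box) or GGGCGG (a GC box) on either strand, and TATAAA (the TATA box) was searched as well.
PDGFRA, upstream start, chr4:54229043-54229292, plus strand: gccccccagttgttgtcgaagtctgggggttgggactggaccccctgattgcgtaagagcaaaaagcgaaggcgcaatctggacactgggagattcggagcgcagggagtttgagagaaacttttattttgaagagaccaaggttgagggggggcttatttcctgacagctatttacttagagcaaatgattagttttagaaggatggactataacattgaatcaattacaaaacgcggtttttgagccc
PDGFRA, downstream start, chr4:54233710-54233959, plus strand: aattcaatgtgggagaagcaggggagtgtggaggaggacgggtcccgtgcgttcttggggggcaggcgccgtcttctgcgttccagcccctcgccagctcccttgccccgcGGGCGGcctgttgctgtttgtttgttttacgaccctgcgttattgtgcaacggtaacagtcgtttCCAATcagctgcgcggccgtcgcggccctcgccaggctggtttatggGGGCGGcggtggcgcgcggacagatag
PDGFRB, chr5:150155846-150156095, minus strand: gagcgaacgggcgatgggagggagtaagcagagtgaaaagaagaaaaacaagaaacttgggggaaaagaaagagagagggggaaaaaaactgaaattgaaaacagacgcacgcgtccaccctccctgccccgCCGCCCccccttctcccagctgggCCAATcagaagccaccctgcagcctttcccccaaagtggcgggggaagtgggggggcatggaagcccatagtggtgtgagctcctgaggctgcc
The window before the downstream PDGFRA start held 1 CCAAT and 2 GGGCGG, that of PDGFRB held 1 of each, and the one before the upstream PDGFRA start held neither. Among the 35116 promoter windows of this length, 32% contained CCAAT, 42.6% contained GGGCGG and 10.7% contained TATAAA on either strand, the last of which was in none of the 3 printed windows. These matches are a description of the letters. The arrays measure no promoter activity and do not tell from which start the PDGFRA transcripts came.

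Among the ligands, PDGFC and PDGFD had higher signals with periostin siRNA, and PDGFA and PDGFB did not differ beyond their spot errors. PDGFC, a latent ligand that signals mainly through PDGFRα, had a signal of 3555 with control siRNA and 4872 with periostin siRNA. It was 1.37-fold higher, at a log2 ratio of 0.45 ± 0.20 (propagated error), where the SD among 50 probes of like signal was 0.05. PDGFD, the latent ligand of PDGFRβ, had a signal of 84.5 after control siRNA and 123 after periostin siRNA. It was 1.46-fold higher, and its log2 ratio of 0.55 ± 0.21 (propagated error) stood against an SD of 0.15 among 74 probes of like signal. Both latent ligands were thus above 0 by more than either error. Of all genes with a ratio, 76.8% had a lower ratio than PDGFC and 80.9% a lower one than PDGFD, so ratios of this size were common on these arrays.

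PDGFA, whose product acts through PDGFRα, could be read on 11 spots. Its 10-spot probe had signals from 36.8 to 49.0 (median 41.2) with control siRNA and from 39.0 to 46.2 (median 41.9) with periostin siRNA. The spots of both arrays overlapped almost completely, and 6 of 10 spots were higher with periostin siRNA. The mean log2 ratio over those spots was 0.02 ± 0.17 (SD over 10 spots). The other PDGFA probe, annotated to another RefSeq transcript of the gene, had signals of 69.0 and 74.9 and a log2 ratio of 0.12 ± 0.21 (propagated error). Scaling on the median turned this sign, to -0.01. PDGFB, the ligand of both receptors, lay near the background, with signals of 24.3 with control siRNA and 20.6 with periostin siRNA against a lower limit of 7.55 and 7.77 for spots well above background. Its log2 ratio was -0.24 ± 0.27 (propagated error), within the SD of 0.33 among 29 probes of like signal.

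**Figure D2:**
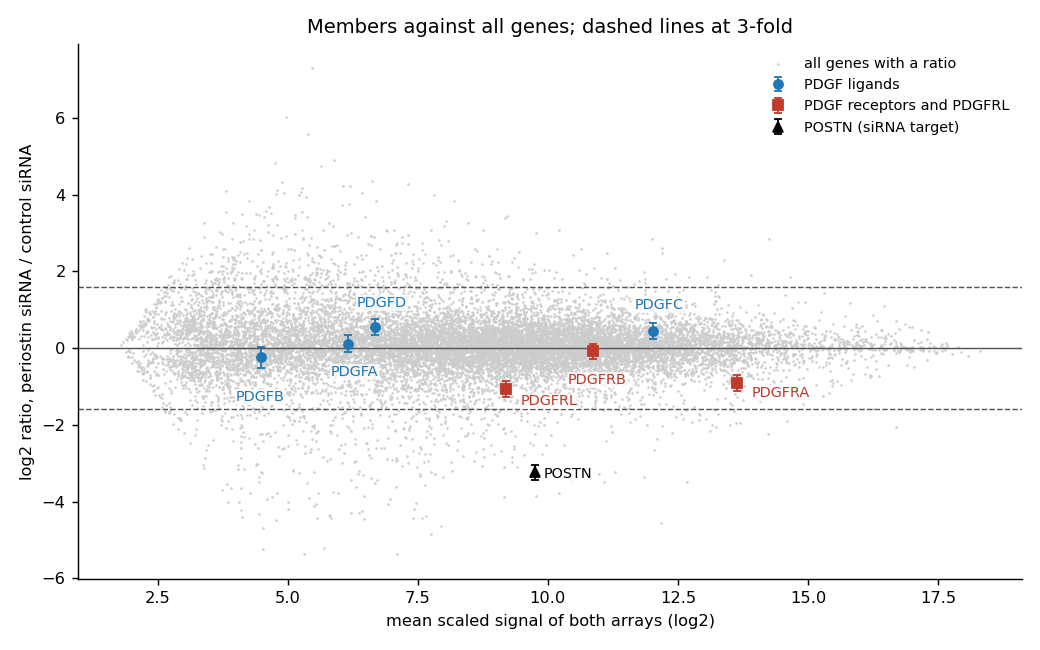
Log2 ratio, periostin siRNA over control siRNA (vertical axis) against the mean log2 scaled signal of both arrays (horizontal axis) for the 16052 genes with a ratio (grey points), the ligands (blue circles), the receptors and PDGFRL (red squares) and POSTN (black triangle). Error bars are the propagated spot errors, and all 7 PDGF genes lie between the dashed 3-fold lines, with PDGFRA and PDGFRL at -0.90 and -1.07.

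Taking the family together, the order of the log2 ratios ran from PDGFRL and PDGFRA through PDGFB, PDGFRB and PDGFA to PDGFC and PDGFD. Of the 6 pairs of neighbours in this order, PDGFRA and PDGFB differed by -0.66 with a combined error of 0.34 and PDGFC and PDGFA by 0.34 with an error of 0.29. The other neighbours differed by less than their combined error. The median of the 7 log2 ratios was -0.08, beside 0.06 over all 16052 genes with a ratio. The threshold of the study was 3-fold, and 0 of the 7 genes were past it in either direction, where 2.75% of all genes were lower and 3.37% were higher by that much. At 2-fold, 1 gene, PDGFRL, was lower and 0 were higher, against 6.42% lower and 7.97% higher among all genes. A count of 1 in 7 says little beside these shares.

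**Figure D3:**
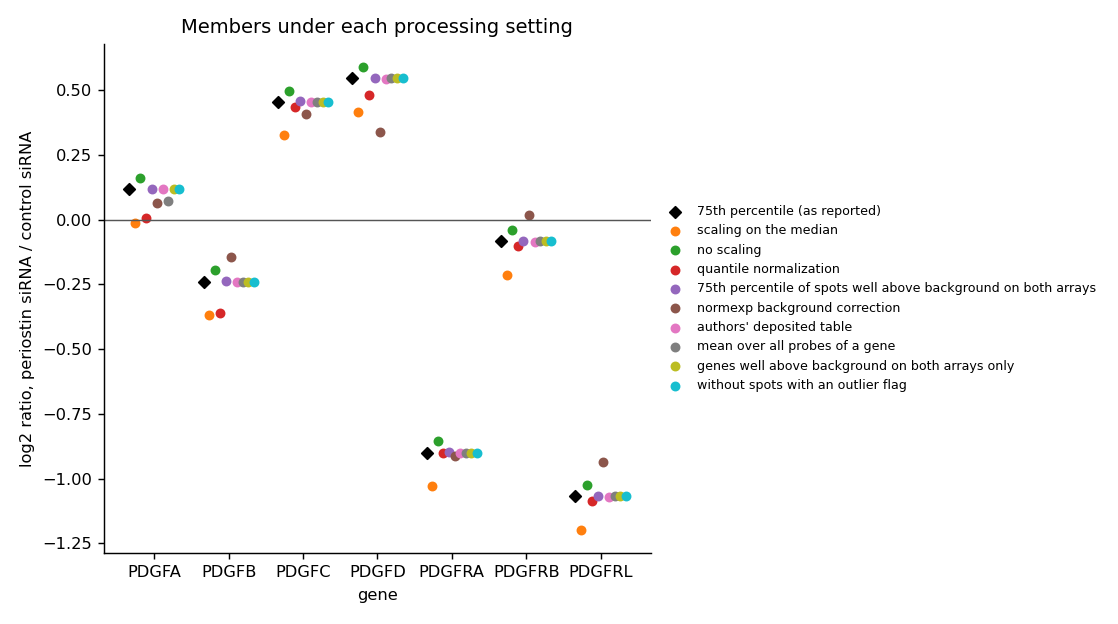
Log2 ratio, periostin siRNA over control siRNA (vertical axis) of each PDGF gene (horizontal axis) under the reported setting (black diamonds) and 9 alternatives of scaling, background correction, probe choice and filtering (coloured circles). PDGFRA stays between -1.03 and -0.86 and PDGFRL between -1.20 and -0.94, PDGFC and PDGFD stay above 0, and PDGFA and PDGFRB lie on both sides of 0.

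The other genes of the pathway were described with lists taken from textbook knowledge. Among 10 genes of ligand processing and binding, 9 had a ratio, with a median log2 ratio of 0.11. PLAU, encoding the urokinase-type plasminogen activator that can activate the D chain, had a signal of 136231 with control siRNA and 45170 with periostin siRNA, and a log2 ratio of -1.59 ± 0.03 (SD over 10 spots). PLAT, encoding the tissue-type activator that cleaves the latent C chain, had signals of 65588 and 29042 and a log2 ratio of -1.18 ± 0.05 (SD over 10 spots). The latent ligands PDGFC and PDGFD lay above 0 and these plasminogen activators below 0 on these arrays, and a relation between them was not tested. PCSK5, a proprotein convertase, was also lower by more than 2-fold, at -1.10, whereas FURIN gave 0.46 ± 0.20 (propagated error). NRP1, a co-receptor for several growth factors, gave 1.42 by its brighter probe and 0.56 by the other. LRP1, an endocytic partner of PDGFRβ, gave 0.50 ± 0.07 (SD over 10 spots) by its brighter probe and 0.20 by the other. A2M, a plasma-type protease inhibitor that binds the B chain, gave 1.50 ± 0.05 (SD over 10 spots, with an outlier flag on at least 1 spot). PLAU was the only gene of this list past 3-fold, where 2.75% of all genes were lower and 3.37% higher by that much. It was just beyond the threshold of 1.58 on the log2 scale. In 8 of 10 settings PLAU was past it, with quantile normalization giving -1.49.

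The adaptors and effectors are proteins that dock on the activated receptors or act just behind them. All 23 of their genes were well above background on both arrays, with a median log2 ratio of -0.05 and a range from -1.15 to 1.001. Past 3-fold were 0 of them, where 2.75% of all genes were lower and 3.37% higher. PTPN11, encoding the phosphatase SHP2 that links the receptors to Ras, had signals of 2878 and 1296 and was lower at -1.15 ± 0.05 (SD over 10 spots), and its other probes gave -1.08 and -1.30. STAT3, a transcription factor activated by many receptors, was higher, with signals of 394.1 and 788.9 by its brighter probe and of 206.2 and 412.5 by the other, just past 2-fold by both. Scaling on the median (log2 ratio 0.87) and the normexp correction (0.90) put its brighter probe short of 2-fold. PIK3CB, a catalytic subunit of PI3-kinase, gave -0.69 ± 0.21, and STAT5A gave 0.53 ± 0.21 (propagated errors), which became -0.29 and 0.26 under the normexp correction. Of the 13 kinases and GTPases of the Ras-MAPK and PI3K-AKT arms, 0 were past 2-fold, where 6.42% of all genes were lower and 7.97% higher. The median of these 13 was -0.06. The highest was MAPK3, encoding the kinase ERK1, with signals of 725.3 and 992 and a log2 ratio of 0.45 ± 0.06 (SD over 10 spots).

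Many negative regulators of the pathway are themselves induced by growth factor signalling. All 15 on the list were measured on both arrays, with a median log2 ratio of -0.15. By more than 3-fold 3 were lower and 0 higher, where 2.75% and 3.37% of all genes were, and by more than 2-fold 6 were lower and 1 higher, where 6.42% and 7.97% of all genes were. With 1 array per condition the list could not be tested. SOCS3, an inhibitor of cytokine and growth factor receptors, had signals of 2256 with control siRNA and 597.6 with periostin siRNA, and its log2 ratio was -1.92 ± 0.20 (propagated error). SPRY2 and SPRY4, Sprouty inhibitors of the path from receptor tyrosine kinases to ERK, gave -1.77 ± 0.20 and -1.72 ± 0.20 (propagated errors). These 3 genes stood beyond the 3-fold threshold with periostin siRNA lower. A dimmer SPRY4 probe gave only -0.73. DUSP6, the phosphatase that inactivates ERK, had signals of 6087 and 2042 and lay just inside the threshold at -1.58, as did SPRED1 at -1.56. Scaling on the median, which lowered the ratios alike, took both past it. PTPRJ, a receptor-type phosphatase that acts on PDGFRβ, gave -1.09. The relatives of SPRY2, SPRY4 and SPRED1 did not all share such low ratios, since SPRY1 gave 0.33 and SPRED2 -0.64. SOCS1, an inhibitor of JAK kinases, was higher, with signals of 388.8 and 1165 and a log2 ratio of 1.58 ± 0.20 (propagated error), just short of 3-fold, which it passed in 3 of 10 settings. PTPN1, a phosphatase that acts on the receptors, gave 0.63 ± 0.20 (propagated error). SPRY4 was not past 3-fold under the normexp correction (-1.44) or as the mean of its probes (-1.22).

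**Figure D4:**
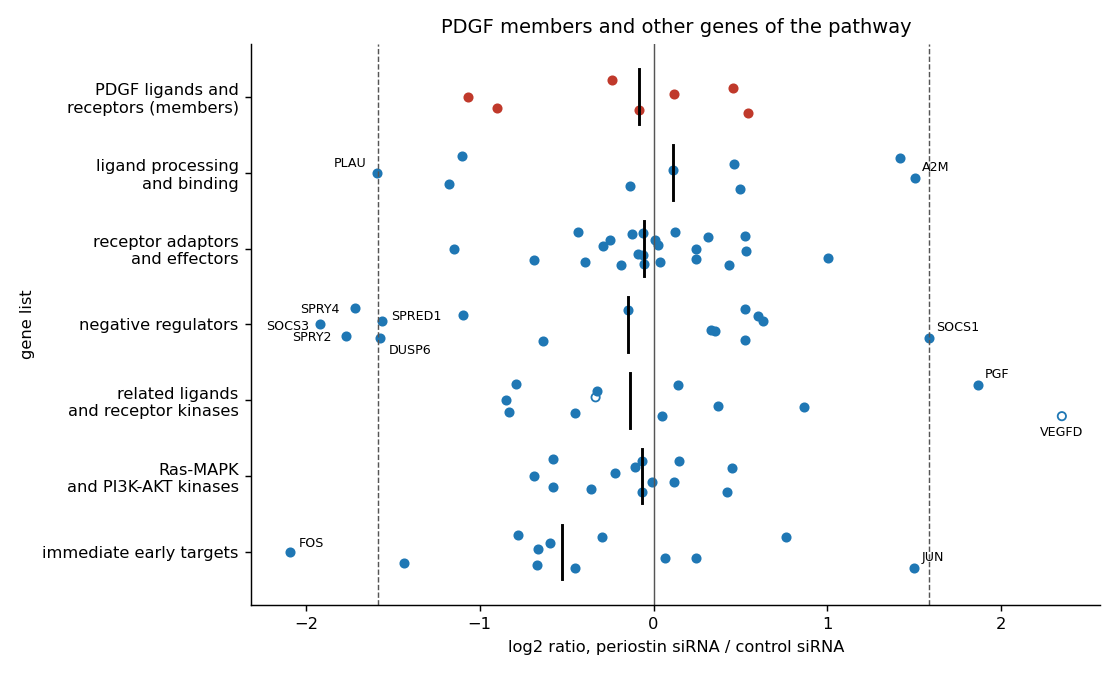
Log2 ratio, periostin siRNA over control siRNA (horizontal axis) for the 7 PDGF genes (red) and the genes with a ratio in 6 pathway lists (blue), with the list median as a black bar and the 3-fold lines dashed; open circles are bounds for genes well above background on 1 array only. SOCS3, SPRY2, SPRY4, PLAU and FOS lie below the lower line and PGF and VEGFD above the upper line.

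Of 14 immediate early genes, which many growth factors induce within minutes, 12 had a ratio, with a median log2 ratio of -0.53 beside 0.06 over all genes. Of these, 8 of 12 were below 0, where 7307 of 16052 genes were, and 2 were lower and 1 higher by more than 2-fold. Among all genes, 6.42% were lower and 7.97% higher by more than 2-fold, and 2.75% and 3.37% by more than 3-fold. FOS, a subunit of the AP-1 transcription factor, was dim, with signals of 93.7 and 21.97, and gave -2.09 ± 0.24 (propagated error), the only value of this list past 3-fold, which became -1.05 under the normexp correction. DUSP1, a phosphatase of MAP kinases, gave -1.44 ± 0.10 (SD over 10 spots), whereas JUN, the partner of FOS, had signals of 2530 and 7158 and gave 1.50 ± 0.20 (propagated error). EGR2 gave 0.77 ± 0.31 (propagated error) from signals of 11.6 and 19.7, close to background, and 0.18 under the normexp correction. FOS and JUN thus lay on opposite sides of 0.

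The list of related genes held the VEGF ligands and their receptors, and the receptor kinases KIT, CSF1R and FLT3 with their ligands. Of these 14 genes, 12 had a ratio. Their median log2 ratio was -0.14, and 0 were lower and 2 higher by more than 3-fold. Among all genes with a ratio, 2.75% were lower and 3.37% higher by that much. PGF, placental growth factor, had signals of 64.9 and 236.7 and gave 1.87 ± 0.21 (propagated error). VEGFD was well above background with periostin siRNA alone, with signals of 5.40 and 38.5, and was at least 5.10-fold higher there. Under the normexp correction neither was past 3-fold, at 1.29 for PGF and 0.44 for VEGFD. VEGFA, the main angiogenic factor, was lower, at -0.85 ± 0.20 (propagated error). By its brightest probe CSF1, the growth factor of macrophages, was higher, at 0.86 ± 0.20 (propagated error). Dimmer probes of CSF1 gave 0.30 and 1.34, the latter from signals of only 8.72 and 22.1. CSF1R, its receptor, gave -0.83 ± 0.28 (SD over 10 spots), and -0.31 under the normexp correction. FLT1 and FLT3 were not well above background on either array.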

How the data were processed

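MRC-5 RNA was measured on Agilent SurePrint G3 Human GE 8x60K v2 arrays with Cy3, 1 array per siRNA. The deposited scanner files hold intensity values that Feature Extraction (11.5.1.1 in the file headers, 12.0.3.1 in the submitters' processing notes) had background-subtracted; the probes were annotated on hg19. Their deposited table of normalized intensities served as an alternative, and no comparison made by the authors was used.

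Here log2 of the processed signal was scaled on the 75th percentile over 58717 spots, controls left out (371.6 with control siRNA, 383.0 with periostin siRNA), and spots of a probe were averaged. Of the spots, 58.0% and 58.9% were well above background; the number of arrays limits the precision. RefSeq accessions (GRCh38.p14) named 65.1% of spots. The brightest probe stood for a gene. If only 1 array had it well above background, the ratio is a bound, taken against the dim signal or the lowest such signal on the other array, whichever was higher. Like probes lay within 0.5 log2 of a probe's mean signal. Calls were past 3-fold; the code was tested on simulated data. Named were all 7 members with every probe, POSTN, and in each pathway list the genes past 3-fold and the 2 lowest and 2 highest unflagged genes above background on both arrays. Some genes that this rule names are not reported here. PCSK5, A2M, FURIN, DUSP6, SPRED1, PTPRJ, SPRY1, SPRED2, FLT1, FLT3 and the markers were named after their values were seen. Members and lists were chosen with earlier results of these data known. Python 3.11.15, numpy 2.4.6, pandas 2.3.3, matplotlib 3.10.9, R 4.3.3 and limma 3.58.1 (normexp, offset 50, on median spot brightness) were used.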

Additional observations from a re-analysis of the deposited data

How the results depend on the processing

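No paired analysis was possible because there was a single array for either siRNA, and so no replicate could be left out. Under 9 alternatives of scaling, background correction, probe choice and filtering, each member's log2 ratio moved by less than its spot error, and the counts of members past 3-fold stayed at 0. PDGFB, PDGFRA and PDGFRL were below 0 and PDGFC and PDGFD above 0 in all of them. A 2-fold threshold gave 1 lower member and 0 higher. The normexp correction, which adds an offset and so pulls dim ratios towards 0, gave -2.99 for POSTN and 192 lower and 143 higher genes past 3-fold, against 441 and 541, with the share of higher calls at 42.7% in place of 55.1%. Scaling on the median took the median of all genes from 0.06 to -0.07 and the list medians to -0.019 for ligand processing and binding, -0.18 for adaptors and effectors, -0.28 for negative regulators, -0.27 for related ligands and receptors, -0.19 for Ras-MAPK and PI3K-AKT kinases and -0.65 for immediate early genes. All other list medians moved by less than 0.12, the pooled SD between spots. Signals close to background limit, among others, the ratios of PDGFB, FOS, CSF1R, EGR2 and VEGFD.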

Other observations

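PDGFA-DT, a long non-coding RNA gene that starts beside PDGFA on the other strand, was represented by 2 probes. Neither was well above background on either array, with signals of 3.89 and 1.53 with control siRNA and 8.56 and 2.05 with periostin siRNA, so no ratio is given.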
